A study of Mus musculus with 6 samples.

Results

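Cytotoxic lymphocyte effector genes, the 10 genes Gzma, Gzmb, Gzmk, Prf1, Nkg7, Ifng, Klrk1, Klrd1, Ncr1 and Tbx21, were read by symbol among the 24346 genes with a deposited expression value in tumor endothelial cells (ECs). The ECs came from tumors of MC38, a mouse colon carcinoma line, grown under the skin of C57BL/6 mice aged 8 to 10 weeks. WT mice were compared with Apelin-KO mice, which lack the gene for the peptide ligand of the receptor APJ, on the same background. Tumors were taken at day 19, and the titles of all samples also name saline, which both genotypes share. The study describes saline given by osmotic pump in another experiment, and whether these mice carried pumps is not given in the sources used here. ECs were sorted as CD31-positive and CD45-negative cells, so the gate was set against the leukocytes in which these 10 genes are known to act. There were 3 samples of each genotype. The labels do not say whether a sample is from a single mouse, so p-values measure the spread between these samples.

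Cytotoxic T cells and natural killer (NK) cells kill by releasing granules that hold perforin, which opens the membrane of the target cell, and granzymes, serine proteases that enter through it. NK receptors such as NKG2D, NKp46 and the CD94 heterodimers decide when an NK cell fires, T-bet is the transcription factor that drives the programme, and interferon-gamma is its main cytokine. In tumors this machinery belongs to infiltrating lymphocytes, and ECs are its neighbours and possible responders through the interferon-gamma receptor.

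The genotype labels were checked with Apln, which was 457 ± 40.7 FPKM (SD, n = 3) in WT and 17.3 ± 7.20 FPKM (SD, n = 3) in Apelin-KO samples. FPKM counts fragments scaled by transcript length and by the mapped reads of the library. Levels of different genes are set beside each other only with care, as the values of Gapdh below show. Of 12 endothelial marker genes, 12 had a mean of at least 10 FPKM. From the step that 1 read makes in low FPKM values, the depth was estimated at 9000000 to 10180000 reads per sample. An FPKM of 0 was not read as absence, since Gapdh, which every cell uses, was itself listed at 0 in WT 2 and WT 3. Gapdh was at most 0.433 FPKM in any sample, so small values above 0, and reads estimated from them, have the same limit. Fits used limma on log2(FPKM + 1), given as WT minus Apelin-KO, and this scale understates differences of genes with low FPKM.

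The values listed for these genes were small, and neither a listed 0 nor a small value is read here as a low level. Only Nkg7 reached a mean of 1 FPKM over the 6 samples, 9 genes stayed under it, and Gzmk was listed at 0 in every sample. The summed level of the 10 genes was 6.38, 8.96 and 4.69 FPKM in WT 1, 2 and 3, and 1.18, 3.20 and 1.76 FPKM in Apelin-KO 1, 2 and 3. The summed level in each WT sample was above that in each Apelin-KO sample, but Nkg7 made up 88.0% of it in WT 3. Without Nkg7, the sum was 4.27, 4.40 and 0.564 FPKM in WT samples and 0.656, 1.44 and 1.06 FPKM in Apelin-KO samples, and the groups overlapped. In bulk RNA from sorted cells, fewer cells of a type and less RNA per cell cannot be told apart.

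**Figure D1:**
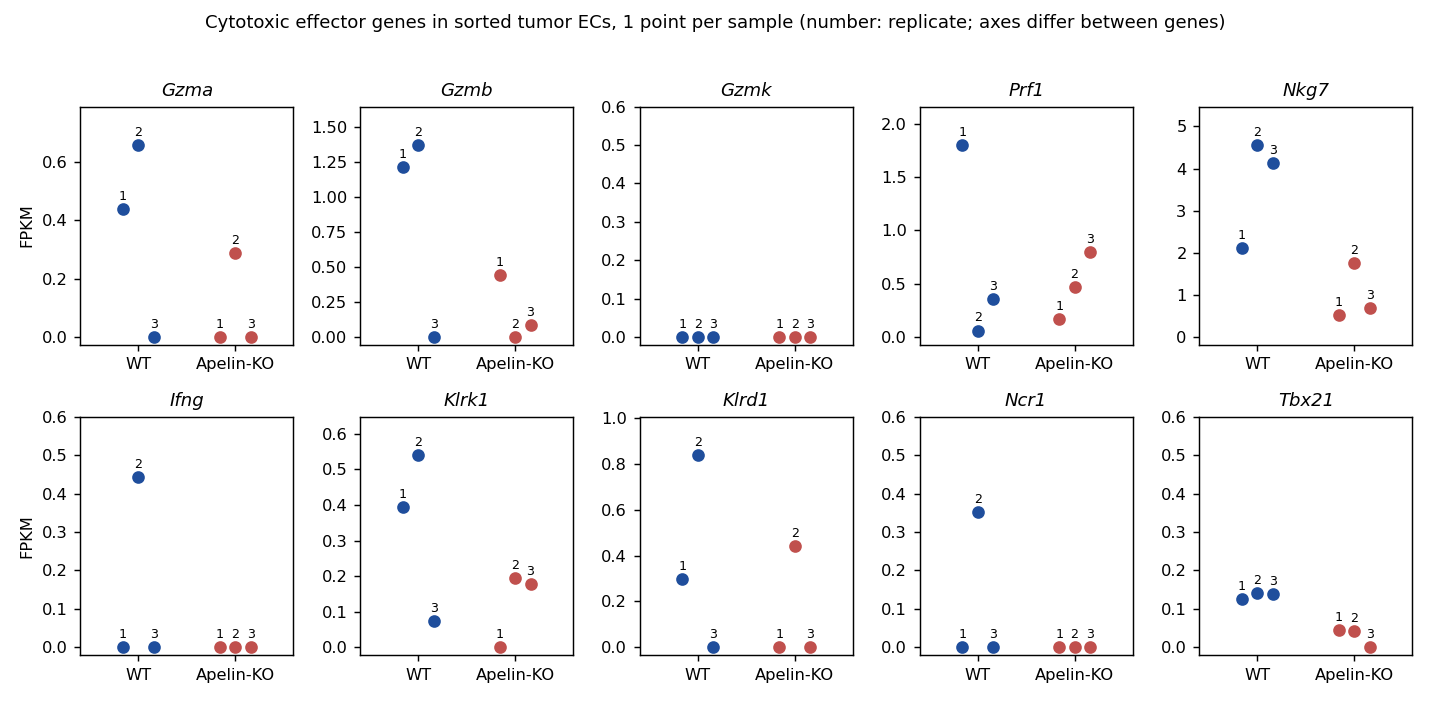
FPKM of each of the 10 genes (y axis, scaled separately for each gene) in WT and Apelin-KO samples (x axis), with 1 point per sample and its replicate number. The groups were apart for Nkg7 and Tbx21, overlapped or held values of 0 in both for the others, and Gzmk was at 0 throughout.

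The reads behind these values were few. Summed over the 10 genes, an estimated 74.3, 66.5 and 32.5 reads lay in the WT replicates, beside 12.1, 28.0 and 20.8 in the Apelin-KO replicates. Over all 6 samples, Nkg7 had an estimated 78.9 reads, Prf1 67.0 and Gzmb 36.5, and no other of these genes had more than the 14.1 reads of Klrk1. The count of genes listed above 0 was 7, 9 and 4 of 10 in WT 1, 2 and 3, and 4, 6 and 4 of 10 in Apelin-KO 1, 2 and 3. WT 2 was the sample in which most of them were seen, and it held the highest value of 8 of the 10 genes. In a limma fit of all genes above 0 in any sample, which took in 9 of the 10, 1 gene (Nkg7) had an unadjusted p-value under 0.05 and was higher in WT ECs, as were 4.93% of all genes in that fit. In the same fit 0 of the 10 genes had an adjusted p-value under 0.05.

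**Figure D2:**
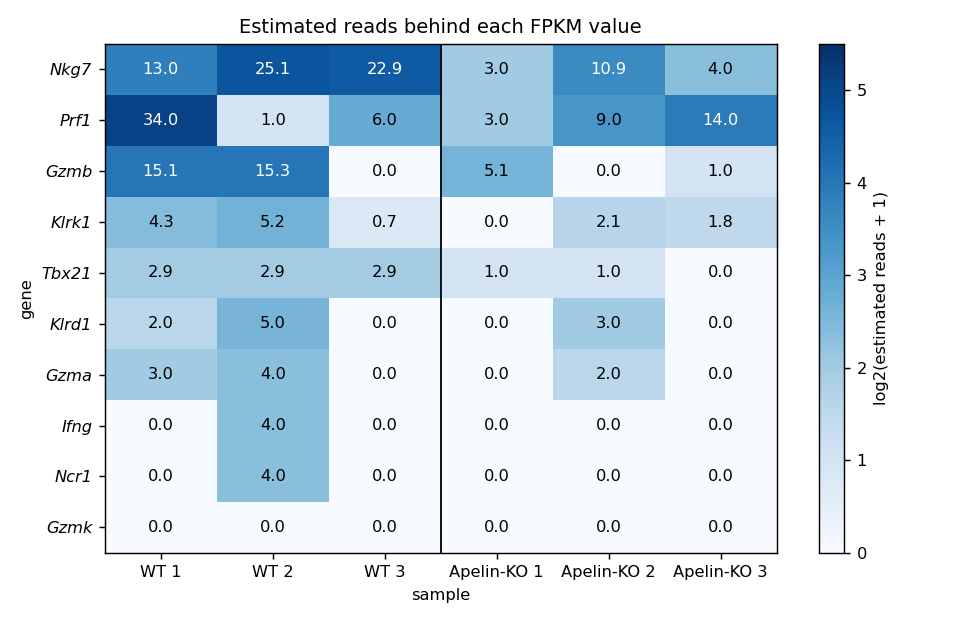
Estimated reads behind each FPKM value, printed in each cell, for the 10 genes (y axis, ordered by total) and the 6 samples (x axis), with color on a log2 scale. Most cells hold under 6 reads, WT 2 is the only sample with reads of Ifng and Ncr1, and Nkg7 has the most reads of all genes in 2 samples of WT.

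The sequences just before the start of the 3 genes with the most reads are shown, since regulators of a gene often act in such stretches. They are RefSeq sequences on GRCm38.p6, read on the strand of the gene, from 250 bases before the RefSeq start up to the first base annotated as an exon. That of Nkg7 covers chr7:43436888-43437072, that of Prf1 chr10:61297586-61297832 and that of Gzmb chr14:56262335-56262584, the last on the minus strand. Capitals mark the letters TCACAC (T-box), TGTGGT (RUNX) and AGGAAG (ETS) on either strand.
Nkg7: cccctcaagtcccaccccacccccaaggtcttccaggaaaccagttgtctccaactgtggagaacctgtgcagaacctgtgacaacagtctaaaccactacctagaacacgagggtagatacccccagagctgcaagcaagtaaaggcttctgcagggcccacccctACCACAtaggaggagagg
Prf1: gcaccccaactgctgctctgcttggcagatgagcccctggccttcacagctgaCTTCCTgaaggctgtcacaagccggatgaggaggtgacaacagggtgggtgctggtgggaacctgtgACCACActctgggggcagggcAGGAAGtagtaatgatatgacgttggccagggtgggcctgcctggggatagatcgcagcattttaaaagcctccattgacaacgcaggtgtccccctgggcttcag
Gzmb: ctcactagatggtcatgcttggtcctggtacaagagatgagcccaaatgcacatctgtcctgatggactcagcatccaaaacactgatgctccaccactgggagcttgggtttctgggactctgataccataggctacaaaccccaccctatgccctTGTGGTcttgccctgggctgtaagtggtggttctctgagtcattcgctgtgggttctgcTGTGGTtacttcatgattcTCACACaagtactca
In the full 250 bases, TCACAC was found for 4 of the 9 genes with an entry (Gzmb, Gzmk, Ncr1 and Nkg7), against 12.2% of 27025 promoters of that length. TGTGGT was found for 6 of 9 against 14.2%, and AGGAAG for 3 of 9 against 29.2%. The matches of Nkg7 to TCACAC and AGGAAG lie in the bases not printed. A match only describes letters in this window, and whether T-bet or another regulator acts there was not tested.

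Nkg7 encodes a small membrane protein of cytotoxic granules that is needed for their release, and it lies on chromosome 7 from 43437073 to 43438249 on the plus strand, with 4 exons in its longest coding transcript (positions here are from GENCODE on GRCm38, the mm10 build). Its level was 2.10, 4.56 and 4.12 FPKM in WT 1, 2 and 3, and 0.526, 1.76 and 0.695 FPKM in Apelin-KO 1, 2 and 3. WT 1, the lowest WT sample, lay just above Apelin-KO 2, the highest Apelin-KO sample, and the other WT samples were well above it. The estimated reads of Nkg7 numbered 13, 25.1 and 22.9 in WT samples against 3.0, 10.9 and 4.0 reads in Apelin-KO samples. WT samples averaged 3.60 ± 1.31 FPKM and Apelin-KO samples 0.994 ± 0.669 FPKM (SD, n = 3 each), a ratio of 3.62.

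The log2 fold change of Nkg7 was 1.21 (standard error, SE, 0.29, 95% interval 0.52 to 1.90, unadjusted p = 0.00444), and limma gave an adjusted p of 0.501 over the 10964 genes tested. It therefore did not pass the adjusted threshold of 0.05, which 1 gene (0.00912% of those tested) did, and that gene was Apln. At an unadjusted p-value under 0.05, 5.17% of all genes tested were higher in WT ECs as Nkg7 was, and its rank among all p-values was 73. The groups of 6.61% of the genes tested did not overlap with WT higher, as those of Nkg7. An exact permutation test over the samples gave p = 0.1 (two-sided), the smallest that 3 against 3 allows. Nkg7 passed the filter of a mean of 1 FPKM only through its WT values, since its Apelin-KO mean was 0.994 FPKM. Without the filter its log2 fold change was 1.21 (unadjusted p = 0.00841, adjusted p = 0.51 in limma). The other 9 genes were under the filter, so 1 of 10 was tested here. The values below come from a fit of the 16341 genes above 0 in any sample.

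**Figure D3:**
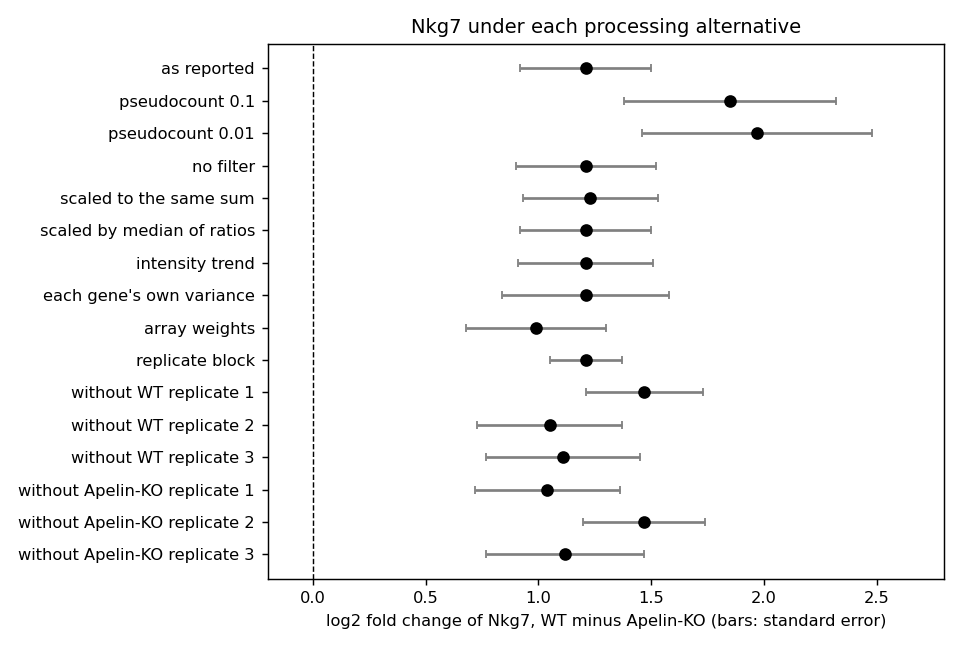
Log2 fold change of Nkg7, WT minus Apelin-KO (x axis), with its standard error (bars), as reported and under each of 15 processing alternatives (y axis). It lay between 0.99 and 1.97 and above 0 in each of them.

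Gzma and Gzmb encode the main granzymes of killer cells, a tryptase and a protease that cleaves after aspartate, and Gzmk encodes a further tryptase of memory T cells. Gzmb, on chromosome 14 from 56258838 to 56262260, was 1.22, 1.37 and 0 FPKM in WT 1, 2 and 3, and 0.439, 0 and 0.087 FPKM in Apelin-KO 1, 2 and 3. WT 1 and WT 2 were the high samples, and WT 3 was listed at 0 beside Apelin-KO 2, so that the groups overlapped. The estimated reads were 15.1, 15.3 and 0 in WT samples and 5.1, 0 and 1.0 in Apelin-KO samples. The log2 fold change of Gzmb was 0.58 (SE 0.36, limma adjusted p = 0.671). Without WT 3 it was 0.98, with an unadjusted p of 0.00261 and an adjusted p of 0.230, and without WT 2 it was 0.36, with an unadjusted p of 0.385.

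Gzma, on chromosome 13 from 113093825 to 113100981, was 0.438, 0.659 and 0 FPKM in WT 1, 2 and 3, and 0, 0.289 and 0 FPKM in Apelin-KO 1, 2 and 3, an estimated 9.0 reads in all. WT 1 and WT 2 were again the high samples and WT 3 was again listed at 0. The log2 fold change of Gzma was 0.30 (SE 0.21, limma adjusted p = 0.715), and without WT 3 it was 0.51 (unadjusted p = 0.0217, adjusted p = 0.343). Without WT 2 it was 0.14 (unadjusted p = 0.531). Gzmk, on chromosome 13 from 113171608 to 113225908, was listed at 0 in all 6 samples. The span of Gzmk holds Esm1, an endothelial tip-cell gene on the opposite strand, at 456 to 713 FPKM, and their annotated exons share 0 bases. Other granzyme genes lie near Gzmb on chromosome 14, and whether reads were split between members of this family was not tested.

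Prf1, which encodes perforin, lies on chromosome 10 from 61297833 to 61304680 on the plus strand. It was 1.80, 0.060 and 0.352 FPKM in WT 1, 2 and 3, and 0.172, 0.472 and 0.797 FPKM in Apelin-KO 1, 2 and 3. WT 1 stood above all other samples, WT 2 was the lowest of the 6, and the groups overlapped throughout. The estimated reads were 34.0, 1.0 and 6.0 for WT, beside 3.0, 9.0 and 14.0 for Apelin-KO. The order differed from that of Nkg7, of which WT 2 had the most reads. WT samples averaged 0.738 ± 0.933 FPKM and Apelin-KO samples 0.480 ± 0.313 FPKM (SD, n = 3 each). The log2 fold change of Prf1 was 0.12 (SE 0.38, 95% interval -0.81 to 1.06, limma adjusted p = 0.941). Without WT 1 the log2 fold change of Prf1 was -0.28 and without Apelin-KO 1 it was -0.03, so its direction rested on single samples.

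Klrk1, which encodes NKG2D, the receptor for stress-induced ligands, lies on chromosome 6 from 129610323 to 129623864. It was 0.395, 0.540 and 0.073 FPKM in WT 1, 2 and 3, and 0, 0.195 and 0.177 FPKM in Apelin-KO 1, 2 and 3. WT 3 lay between Apelin-KO 1 and the other Apelin-KO samples. Coding transcripts of Klrk1 run from 1019 to 3197 bases, so the reads behind WT 2 could be anything from 4.0 to 14.6. It had a log2 fold change of 0.24 (SE 0.15, limma adjusted p = 0.689), and without WT 3 it was 0.39 (unadjusted p = 0.0207, adjusted p = 0.339). Without WT 2 the value of Klrk1 was 0.13 (unadjusted p = 0.45), and without Apelin-KO 1 it was 0.16.

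Klrd1 encodes CD94, the partner of the NKG2 receptors that read Qa-1, and lies beside Klrk1 on chromosome 6, from 129591782 to 129598775. It was 0.297, 0.839 and 0 FPKM in WT 1, 2 and 3, and 0, 0.441 and 0 FPKM in Apelin-KO 1, 2 and 3, an estimated 10 reads in all. Ncr1 encodes NKp46, an activating receptor used to define NK cells, on chromosome 7 from 4337724 to 4345164. It was listed above 0 only in WT 2, at 0.352 FPKM or an estimated 4.0 reads. For Klrd1, WT 2 was the highest sample, Apelin-KO 2 lay above WT 1, and the log2 fold change was 0.24 (SE 0.26, limma adjusted p = 0.823). That value moved to 0.01 without WT 2, to 0.15 without Apelin-KO 1 or Apelin-KO 3, to 0.42 without Apelin-KO 2 and to 0.45 without WT 3. No fold is given for Ncr1, since it was listed at 0 in every Apelin-KO sample.

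Tbx21, which encodes T-bet, lies on chromosome 11 from 97098071 to 97115331 on the minus strand. It was 0.125, 0.141 and 0.139 FPKM in WT 1, 2 and 3, and 0.045, 0.041 and 0 FPKM in Apelin-KO 1, 2 and 3. The WT samples were close to each other and all lay above the Apelin-KO samples, as for 6.65% of the genes above 0 in any sample. Of the 10 genes, 2 had groups apart in this way, Tbx21 and Nkg7. Each WT value stands for an estimated 2.9 reads, and each Apelin-KO value for at most 1.0 read. The log2 fold change of Tbx21 was 0.14 (SE 0.06, unadjusted p = 0.0504, limma adjusted p = 0.562), and an exact permutation test gave p = 0.1 (two-sided). Its unadjusted p fell under 0.05 in 5 of 14 alternatives, and its adjusted p lay between 0.536 and 0.902 in all of them.

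Ifng, which encodes interferon-gamma, lies on chromosome 10 from 118441046 to 118445892. It was listed above 0 only in WT 2, at 0.442 FPKM or an estimated 4.0 reads, and at 0 in the other 5 samples. No fold is given for Ifng for the same reason as for Ncr1. Thus Ifng and Ncr1, at 4.0 reads each, were seen in the same sample, the one with the highest Gzma, Gzmb, Nkg7, Klrk1, Klrd1 and Tbx21.

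Markers of other cell types were set beside these genes. Ptprc, which encodes the CD45 used in the gate, was 3.13, 4.84 and 1.26 FPKM in WT 1, 2 and 3, and 0.043, 1.70 and 0.740 FPKM in Apelin-KO 1, 2 and 3. Of 12 hematopoietic markers, 12 were above 0 in every sample, and their sum was 207 to 332 FPKM in WT and 188 to 248 FPKM in Apelin-KO samples. Of the 10 macrophage markers, 10 had a mean of at least 1 FPKM, and their sum was 465, 845 and 221 FPKM in WT 1, 2 and 3, and 90.1, 268 and 252 FPKM in Apelin-KO 1, 2 and 3. WT 2 and WT 1 were thus the samples highest in macrophage markers, in Ptprc, and in the 9 genes other than Nkg7 summed. Csf1r, the receptor that macrophages need to survive, was 21.5, 34.2 and 9.19 FPKM in the WT and 3.50, 12.7 and 8.63 FPKM in the Apelin-KO replicates. At an unadjusted p-value under 0.05, 4 of 10 hematopoietic and 5 of 10 macrophage markers tested were higher in WT ECs, beside 5.17% of all genes tested, and 0 of either list had an adjusted one in limma. Ptprc and Mrc1, among those called, had Apelin-KO means of 0.826 and 0.975 FPKM. They passed the filter of a mean of 1 FPKM only through their WT values, so these counts depend on the filter. Lcp1 and Hcls1 of the hematopoietic list had log2 fold changes of -0.18 and -0.25. The median log2 fold change was 0.92 over the 10 hematopoietic and 1.28 over the 10 macrophage markers tested, with 8 and 10 above 0, beside a median of -0.01 and 47.5% above 0 over all genes tested. What such cells added to the results above was not tested.

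Nkg7 and Ptprc did not order the samples alike. WT 3 had less Ptprc than Apelin-KO 2 (1.26 against 1.70 FPKM) and a lower sum of macrophage markers, but more Nkg7 (4.12 against 1.76 FPKM). Per unit of Ptprc, Nkg7 came to 0.672, 0.942 and 3.26 for the WT replicates, beside 12.2, 1.04 and 0.939 for the Apelin-KO replicates. On this ratio the groups overlapped, and the value in Apelin-KO 1 rests on a Ptprc level of 0.043 FPKM. Relative to the 12 hematopoietic markers summed, Nkg7 was 0.0077, 0.0137 and 0.0199 in WT samples and 0.0028, 0.0071 and 0.0032 in Apelin-KO samples, and the groups did not overlap. That sum is led by Lcp1, at 109 to 139 FPKM in every sample. No ratio was taken to the macrophage markers, whose sum ran from 90.1 to 845 FPKM over the samples.

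**Figure D4:**
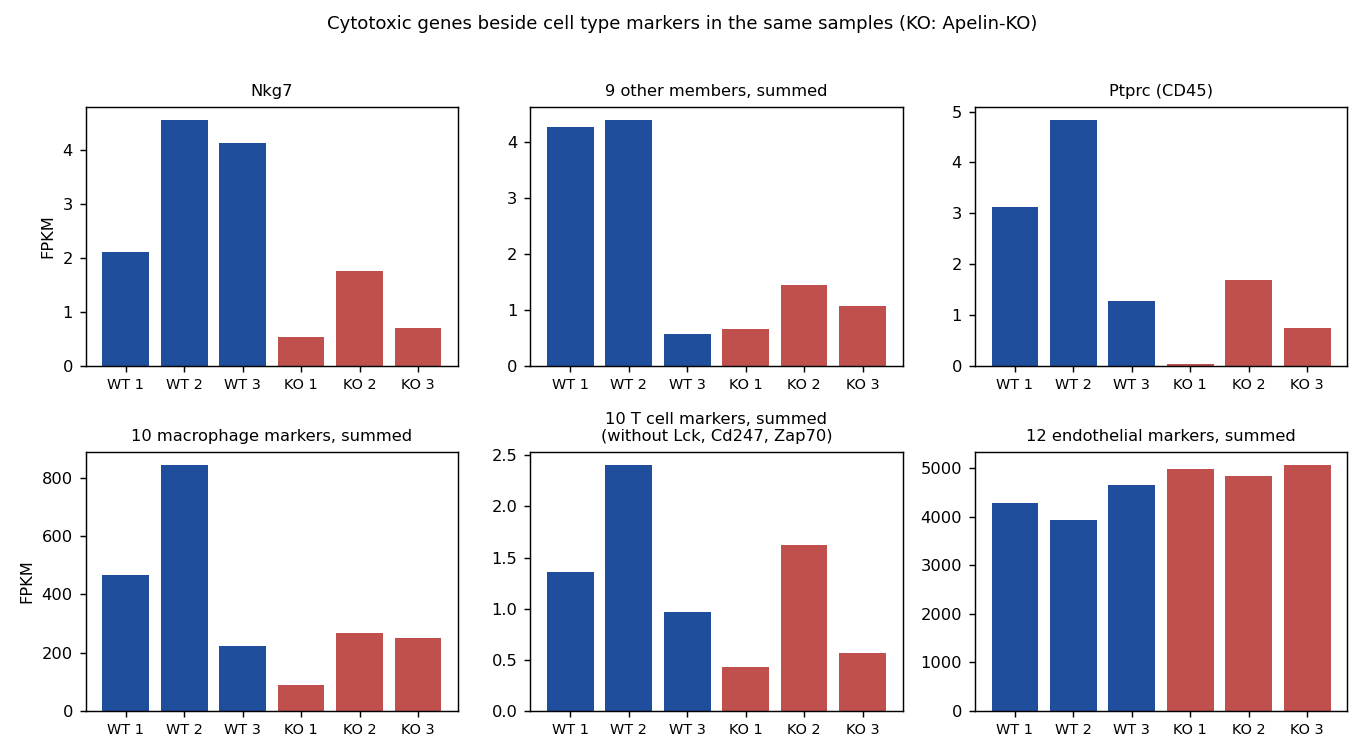
FPKM (y axis, from 0, scaled separately) of Nkg7, the 9 other genes summed, Ptprc, and summed macrophage, T cell and endothelial markers in each of the 6 samples (x axis). WT 3 is high in Nkg7 and low in the 9 other genes, in Ptprc and in macrophage markers, and endothelial markers sum to 3926 to 5070 FPKM throughout.

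Cd3e, a chain of the T cell receptor complex, lay between 0.086 and 0.239 FPKM over the 6 samples, and Cd8a, the coreceptor of killer T cells, between 0 and 0.301 FPKM. Cd4 lay between 0.036 and 0.497 FPKM, with its highest value in WT 2. Of 13 T cell markers, 3 had a mean of at least 1 FPKM (Lck, Cd247 and Zap70), and Lat was listed at 0 in every sample. Their sum was 12.5 to 14.8 FPKM in WT and 11.4 to 13.7 FPKM in Apelin-KO samples, and without Lck, Cd247 and Zap70, a choice made after their values were seen, it was 0.969 to 2.41 and 0.433 to 1.62 FPKM.

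Relative to the sum of all 13 T cell markers, Nkg7 was 0.143, 0.308 and 0.329 in WT samples and 0.0383, 0.140 and 0.0609 in Apelin-KO samples. Relative to the 10 without Lck, Cd247 and Zap70, it was 1.55, 1.89 and 4.25 in WT samples and 1.22, 1.08 and 1.23 in Apelin-KO samples. On either ratio the groups did not overlap, and no test was run. The 13-marker sum ran only from 11.4 to 14.8 FPKM, so that ratio largely repeats the levels of Nkg7 itself. The 10-marker sum was at most 2.41 FPKM. Neither ratio can therefore tell whether Nkg7 differed beyond T cell content. Klrb1c, which encodes NK1.1, lay between 0.080 and 0.217 FPKM, with the highest value in Apelin-KO 3. The 7 NK cell markers summed to 0.514 to 5.30 FPKM in WT and 0.966 to 3.13 FPKM in Apelin-KO samples. Klra4 had the highest mean of them and was 4.38, 2.35 and 0.004 FPKM in WT 1, 2 and 3, beside 0.760, 2.73 and 2.25 FPKM in the Apelin-KO replicates. The groups overlapped, and Klra4 made up little of the sum in WT 3 and most of it in each of the other samples. Klra8 was listed at 0 in every sample.

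Pecam1, which encodes the CD31 of the gate, was 604 ± 60.5 FPKM (SD, n = 3) in WT and 760 ± 79.5 FPKM (SD, n = 3) in Apelin-KO samples, and Cdh5, which encodes VE-cadherin, was 180 ± 30.6 and 248 ± 40.3 FPKM (SD, n = 3). Of the 12 endothelial markers, 0 had an adjusted p-value under 0.05 in limma and 3 had an unadjusted p-value under 0.05, all lower in WT ECs, where 4.25% of all genes tested were. Their median log2 fold change was -0.21, with 0 of 12 above 0.

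Genes that work with granzymes and perforin ranged widely in FPKM, and 4 of them were listed at 0 in every sample. Of 17 listed genes of granules and killing, 6 were tested, 0 had an adjusted p-value under 0.05 in limma, and at an unadjusted p-value under 0.05 there was 1 higher and 1 lower in WT ECs, beside 5.17% and 4.25% of all genes tested. Lamp1, a general lysosome membrane protein, was 386 ± 17.3 and 400 ± 25.1 FPKM (SD, n = 3), and Srgn, the proteoglycan that packs granules, was 261 ± 7.70 and 284 ± 33.5 FPKM (SD, n = 3), in WT and Apelin-KO ECs. Ctsc, the protease that activates granzymes, had a log2 fold change of 1.32 (SE 0.56, unadjusted p = 0.0486), and Rab27a, which docks granules, one of -0.39 (SE 0.14, unadjusted p = 0.0259). Ctsc was 44.7, 88.2 and 18.5 FPKM in WT samples, with WT 3 below Apelin-KO 2 at 24.7 FPKM. Gzmd, Gzme, Gzmg and Gzmn were listed at 0 in every sample. Gzmc, named after its values were seen, was 0.674, 3.35 and 0.747 FPKM in WT samples and 0.146, 0.267 and 0.579 FPKM in Apelin-KO samples.

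Of 5 listed serpins, a family of protease inhibitors, 3 had a mean of at least 10 FPKM, and 4 had one of at least 1 FPKM. Whether each of the 5 inhibits a granzyme was not tested. Serpinb9b, named after its values were seen, was the other, at 0 to 0.341 FPKM. Serpinb9, the inhibitor of granzyme B, was 36.0, 45.5 and 41.7 FPKM in WT samples and 28.4, 35.0 and 28.0 FPKM in Apelin-KO samples. The WT samples lay above the Apelin-KO samples, with a log2 fold change of 0.42 (SE 0.14, unadjusted p = 0.0177, limma adjusted p = 0.501). Serpinb6b was 5.30 ± 1.36 and 2.73 ± 0.895 FPKM (SD, n = 3), with a log2 fold change of 0.76 (SE 0.22, unadjusted p = 0.0106), and Serpinb6a was 125 ± 14.7 and 129 ± 2.86 FPKM (SD, n = 3). Of the 4 serpins tested, 2 were higher in WT samples with an unadjusted p-value under 0.05, beside 5.17% of all genes tested. In limma 0 had an adjusted one, and the median log2 fold change was 0.42, beside -0.01 over all genes tested.

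Of the ligands of these receptors, 3 had a mean of at least 10 FPKM. H2-T23, which encodes the Qa-1 read by CD94 heterodimers, was 94.0 ± 6.98 and 74.6 ± 8.31 FPKM (SD, n = 3) in the WT and Apelin-KO groups, at a log2 fold change of 0.33 (SE 0.12, unadjusted p = 0.0263). Raet1e, a ligand of NKG2D, was 22.8 ± 1.27 and 29.4 ± 4.27 FPKM (SD, n = 3), with a log2 fold change of -0.35 (SE 0.13, unadjusted p = 0.0281). Of the 9 ligands in the files, 6 were tested, and at an unadjusted p-value under 0.05 there was 1 higher and 2 lower in WT ECs, beside 5.17% and 4.25% of all genes tested, while 0 had an adjusted p-value under 0.05 in limma.

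Among 18 listed receptors and adaptors of NK and T cells, 3 were tested. Tyrobp, an adaptor that macrophages share, was 50.6, 85.4 and 30.6 FPKM in WT samples and 16.3, 28.1 and 26.4 FPKM in Apelin-KO samples, with a log2 fold change of 1.12 (SE 0.37, unadjusted p = 0.0202). Hcst, the adaptor of NKG2D also called DAP10, was 11.1 ± 2.70 and 14.0 ± 4.92 FPKM (SD, n = 3). Tyrobp was 1 of 3 higher in WT samples with an unadjusted p-value under 0.05, beside 5.17% of all genes tested, and 0 of 3 had an adjusted one in limma. Of 14 regulators and cytokine receptors, 7 were tested, 1 was higher in WT samples with an unadjusted p-value under 0.05, beside the same 5.17%, and 0 had an adjusted one in limma. That gene was Il12rb1, a chain of the receptor for interleukin 12, at 1.63 ± 0.155 and 0.890 ± 0.269 FPKM (SD, n = 3) in WT and Apelin-KO ECs. Il12rb1 passed the filter of a mean of 1 FPKM only through its WT values, so this count depends on the filter. Id2 was 51.6 ± 3.90 and 42.9 ± 4.22 FPKM (SD, n = 3), and Prdm1 was 18.3 ± 1.77 and 19.8 ± 5.15 FPKM (SD, n = 3).

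The receptor of interferon-gamma and genes known to respond to it were read as a further list. Ifngr1, a chain of that receptor named after its values were seen, was 133 ± 11.5 and 138 ± 8.39 FPKM (SD, n = 3) in the WT and Apelin-KO groups, at a log2 fold change of -0.05 (SE 0.11). Of 24 listed genes of this group, 21 had a mean of at least 10 FPKM and 22 were tested. Of these, 0 had an adjusted p-value under 0.05 in limma and 2 an unadjusted one, Psmb8 and Gbp9, both higher in WT ECs, where 5.17% of all genes tested were. Psmb8, a subunit of the immunoproteasome, was 409 ± 33.7 and 310 ± 43.4 FPKM (SD, n = 3), with a log2 fold change of 0.40 (SE 0.13, unadjusted p = 0.0198), and Gbp9 had one of 0.31 (SE 0.12, unadjusted p = 0.0394). The median log2 fold change of the 22 genes was 0.30, with 18 above 0, beside a median of -0.01 and 47.5% above 0 over all genes tested. Cxcl10, a chemokine for activated T cells, was 175, 229 and 229 FPKM in WT samples and 77.4, 182 and 477 FPKM in Apelin-KO samples, so that the highest and the lowest sample were both Apelin-KO.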

How the data were processed

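RNA of CD31-positive, CD45-negative tumor cells was sequenced by the authors as stranded mRNA libraries with 75-base single-end reads, aligned to the mm10 build by TopHat and Bowtie2, and summarised by Cufflinks. Versions of the mapping tools differ between the paper and the submitters' processing notes, which name TopHat2 2.1.1 and Cufflinks 2.2.1. The deposited values are FPKM with 3 decimals, 1 per gene symbol and sample. Annotation, strand setting and filters are not given in the sources used here. The members and gene lists were chosen with earlier results of these data known.

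The 10964 genes whose mean reached 1 FPKM were fitted on log2(FPKM + 1) by limma 3.58.1 (R 4.3.3), two-sided, without block or trend, with Benjamini-Hochberg adjustment. Members under the filter came from the same fit without it. Depth was the library size, searched in steps, at which low FPKM of 3742 genes with a single transcript over 700 bases lay most often within 0.1 of a whole read, assuming 200-base fragments; 67.4% to 70.6% did. Reads of a member use the length between its shortest and longest coding GENCODE transcript (GRCm38) that brings its values nearest to whole reads. They are estimates, and no count test was run. Depth search and fit were tested on simulated data. Alternatives changed the pseudocount, filter, scaling, variance, weights, pairing or samples. The naming rule took all 10 members, at most the 2 genes of highest mean and the 2 of lowest p in each other list, the markers Cd3e, Cd8a, Cd4, Ptprc, Csf1r, Klrb1c, Pecam1 and Cdh5, and Apln. Gapdh, Esm1, Gzmc, Hcls1, Ifngr1, Il2rb, Serpinb9b and the genes named only for being listed at 0 in every sample were chosen after their values were seen.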

Additional observations from a re-analysis of the deposited data

How the results depend on the processing

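The log2 fold change of Nkg7 stayed above 0 with an unadjusted p-value under 0.05 in all 15 alternatives that gave a value, between 0.99 with array weights and 1.97 with a pseudocount of 0.01, and its adjusted p-value lay between 0.303 and 0.939 in limma. With a mean of at least 5 FPKM, 0 members in place of 1 had an unadjusted p-value under 0.05, since fewer genes were tested and Nkg7 was not among them. The genes that passed the adjusted threshold numbered 1 as reported, 2 when the pseudocount was 0.01, when no filter was applied, when the mean had to reach 5 FPKM and under an intensity trend, 0 with each gene's own variance, and 0 to 3 over the 6 fits that left out a sample. Prf1 turned direction, to -0.01 with a pseudocount of 0.1, to -0.21 with a pseudocount of 0.01, and over the fits without a sample it ranged from -0.28 to 0.42. The cause was not tested. With a pseudocount of 0.01, the log2 fold changes of Gzma, Gzmb, Klrk1, Klrd1 and Tbx21 were 2.22, 1.76, 1.86, 1.95 and 2.25. As reported they were 0.30, 0.58, 0.24, 0.24 and 0.14. With that pseudocount their adjusted p-values lay between 0.705 and 0.844 in limma, so the size of these values depends on the scale. With the replicate number as a block, the log2 fold change of Nkg7 was 1.21 (unadjusted p = 0.000701, adjusted p = 0.533 in limma). The deviations of same-numbered samples had correlations of -0.14, 0.21 and -0.02 across genes, over 0.1 in pair 2 only, so the numbers were not taken to pair the samples. Most values of the members rest on under 6 estimated reads, and the smallest difference detectable at this depth was not tested.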

Other observations

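Lck, Cd247 and Zap70, which encode kinases and a chain that signal for the T cell receptor, were the T cell markers with a mean of at least 1 FPKM. Lck was 8.71, 7.92 and 8.83 FPKM in WT 1, 2 and 3, and 7.68, 7.37 and 7.61 FPKM in Apelin-KO 1, 2 and 3, a narrow range in samples whose Ptprc ran from 0.043 to 4.84 FPKM. Cd247 was 1.98 to 3.64 FPKM over the 6 samples, where Cd3e reached at most 0.239 FPKM.

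Of the 4 mast cell markers, 0 had a mean of at least 1 FPKM, and they summed to 0.177 to 1.36 FPKM in WT and 0.119 to 0.641 FPKM in Apelin-KO samples, with Mcpt4 listed at 0 throughout. Of the 3 markers of plasmacytoid dendritic cells, 2 were listed at 0 in every sample. Il2rb, the shared receptor chain for interleukins 2 and 15 and named after its values were seen, was 1.46, 1.46 and 0.174 FPKM in WT 1, 2 and 3, and 0.128, 0.350 and 0.422 FPKM in Apelin-KO 1, 2 and 3. WT 1 and WT 2 were the high samples, as for Gzmb.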
